A study of Homo sapiens with 12 samples.

Results

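A pair of locked nucleic acids (LNAs) was compared directly: mtAsn-1, designed against the mitochondrial asparagine tRNA, and mtLys, designed against the mitochondrial lysine tRNA. An LNA oligonucleotide carries locked sugars, which make it bind its complementary RNA tightly. The comparison used 6 of the 12 libraries of the study, the 3 mtAsn-1 and the 3 mtLys libraries, over 52859 intact gene rows of the deposited count table. Of these genes, 16051 had enough reads to be tested. All groups were cultures of MDA-MB-231, an established line of mesenchymal-like, triple-negative breast cancer cells, transfected with LNA at 20 nM by a lipid reagent and harvested on day 2. The 3 libraries from cells given a control LNA served only as a level for reference. The study was set up to follow nuclear transcription after interference with a mitochondrial tRNA. mtLys was the only LNA against the lysine tRNA, and mtAsn-1 was 1 of 2 against the asparagine tRNA, so the targeted tRNA and the particular oligonucleotide cannot be told apart in this comparison. The labels do not say whether replicates were separate cultures, and the p-values therefore rest on library-to-library spread alone, part or all of which could be technical.

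Human mitochondria carry their own genome, which encodes the tRNAs used to translate the few proteins made inside the organelle. Each tRNA reads codons through its anticodon and is charged with its amino acid by an aminoacyl-tRNA synthetase that is encoded in the nucleus and imported. Disturbed mitochondrial translation is known to reach the nucleus through the integrated stress response, in which the transcription factor ATF4 switches on amino acid synthesis and transport genes.

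The targets are shown first because the groups are named after them. The asparagine tRNA gene MT-TN lies on the mitochondrial chromosome at 5657 to 5729 on the minus strand (73 bases), and the lysine tRNA gene MT-TK lies at 8295 to 8364 on the plus strand (70 bases). Sequences are given 5′ to 3′ as DNA from GENCODE v29 on GRCh38, with the anticodon in capitals. The LNA sequences themselves were not used here.
MT-TN: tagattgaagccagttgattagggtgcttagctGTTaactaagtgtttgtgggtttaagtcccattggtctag
MT-TK: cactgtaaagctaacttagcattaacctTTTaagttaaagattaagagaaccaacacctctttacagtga

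These mRNA-type libraries read the asparagine tRNA too rarely to check it. MT-TN had 5, 2 and 2 reads with mtAsn-1, 4, 5 and 1 with mtLys and 3, 6 and 2 with the control LNA. The rate with mtAsn-1 was 1.35 times that with mtLys (95% counting interval 0.484 to 3.68; two-sided exact permutation test, p = 0.4, with 0.1 the smallest p that 3 libraries against 3 allow), so a change in either direction was not detectable at this depth. MT-TK had 126, 135 and 269 reads with mtAsn-1 and 280, 283 and 198 with mtLys. Scaled to library size this came to 6.21, 7.72 and 9.67 CPM (reads of a gene relative to the scaled total of its library) against 7.55, 8.29 and 7.37 CPM, and the groups overlapped. The rate ratio was 1.04 (95% counting interval 0.93 to 1.16; exact permutation p = 1), and it was 0.89 without mtAsn-1 replicate 3. The counting intervals cover counting error only, since reads amplified by PCR are not independent molecules. The nuclear genes for the matching mitochondrial enzymes did not pass the test either. NARS2, the mitochondrial asparaginyl-tRNA synthetase, had 15.5 ± 1.36 CPM with mtAsn-1 and 14.4 ± 0.27 CPM with mtLys (SD, n = 3; edgeR adjusted p = 0.532). KARS1, which encodes both the cytosolic and the mitochondrial lysyl-tRNA synthetase, had 142 ± 1.55 and 145 ± 2.77 CPM (edgeR adjusted p = 0.773). The 24 mitochondrial genes in the table were all tRNA or rRNA genes, and some, MT-TN among them, had too few reads to be tested. MT-TW for the tryptophan tRNA was the 1 that passed, at 7.88 ± 0.886 CPM with mtAsn-1 and 10.5 ± 0.834 CPM with mtLys (log2 fold change −0.41 ± 0.112 SE, edgeR adjusted p = 0.0301). This was 1 of 16 tested tRNA genes (6.25%), where 3.14% of all tested genes were lower. The MT-TW call was made on 172, 120 and 231 reads with mtAsn-1 and 409, 327 and 296 with mtLys. Longer mitochondrial transcripts also contain tRNA sequences, and reads of them cannot be told from reads of mature tRNA.

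Total counts ran from 17978825 to 28314164 with mtAsn-1 and from 27316004 to 37708993 with mtLys. mtAsn-1 replicate 2 stood apart from its group: it had the lowest total and the lowest share of reads in mitochondrial genes, 0.881% where the other 5 libraries had 1.02% to 1.21%. The root mean square difference in log2 CPM from its fellow replicates was 0.354 and 0.372, against 0.315 for the other mtAsn-1 pair and 0.26 to 0.27 among mtLys libraries. The count of calls over all genes is therefore given with and without it, and the same is done for gene lists with several calls. In whole cultures, fewer cells of a type and less RNA per cell cannot be told apart.

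The 2 LNAs left cells with broadly similar transcriptomes and a set of small differences. With mtAsn-1, 341 genes were higher (2.12% of those tested) and 504 were lower (3.14%) than with mtLys at an edgeR adjusted p under 0.05, which makes 845 in all (5.26%), and 18.3% of tested genes had an unadjusted p under 0.05. The median size was 0.213 on the log2 scale (1.16-fold) among genes that rose and 0.34 (1.27-fold) among genes that fell, while the median absolute difference over all tested genes was 0.0915. At least 1.5-fold differences were seen in 31 of the higher and 138 of the lower genes (1.05% of tested genes together), and at least 2-fold differences in 8 and 54 (0.386% together). Among genes with a mean log2 CPM of at least 2, none of the higher and 3 of the lower genes reached 2-fold. The libraries of the groups did not overlap for 837 of the 845 called genes, where 24.1% of all tested genes showed no overlap. Without mtAsn-1 replicate 2, 145 genes were higher (0.879% of 16504) and 356 were lower (2.16%), of which 126 and 311 were also called with all libraries. Of the called genes, 341 higher and 503 lower were tested in all 12 fits that left out a library, and no called gene turned direction in a fit that tested it. In all 12, 66 of the higher and 181 of the lower genes stayed under the threshold in all 12.

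**Figure D1:**
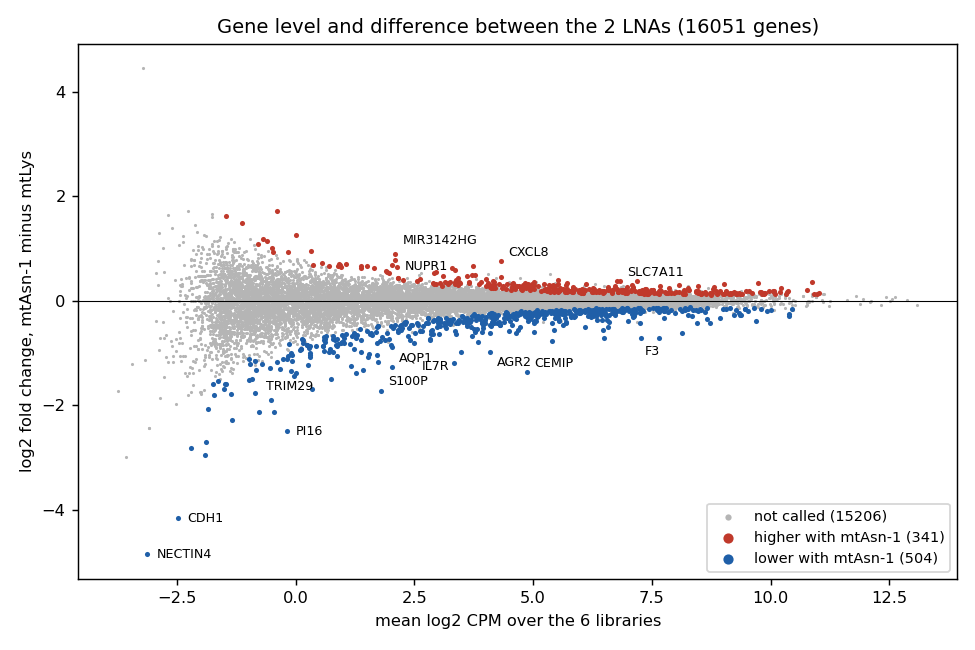
Each point is 1 of 16051 genes, with its mean log2 CPM over the 3 mtAsn-1 and 3 mtLys libraries on the horizontal axis and its log2 fold change (mtAsn-1 minus mtLys) on the vertical axis. The 341 red genes are higher and the 504 blue genes lower at an edgeR adjusted p under 0.05, and the largest falls, such as CDH1 and NECTIN4, lie at low levels.

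At a mean log2 CPM of at least 2, protein-coding genes that were higher with mtAsn-1 were led by stress and inflammatory genes. The 8 higher genes that reached 2-fold all had lower levels and are not named here. The largest rises and falls, here and below, were picked among called genes with a mean log2 CPM of at least 2. Their groups also had to lie apart, so for them no overlap was a condition and not a result. NUPR1, a stress-induced chromatin protein gene (chromosome 16, 28532708 to 28538974, minus strand, hg38), had 4.88, 7.55 and 4.53 CPM with mtAsn-1, 2.83, 3.57 and 3.28 CPM with mtLys and 15.9, 16 and 15.3 CPM with the control LNA. All mtAsn-1 libraries lay above all mtLys libraries, and both groups lay far below the control (log2 fold change 0.77 ± 0.146 SE, edgeR adjusted p = 0.00176). CXCL8, the neutrophil-attracting chemokine interleukin-8 (chromosome 4, 73740569 to 73743716, plus strand), had 22.2, 30.7 and 25.5 CPM with mtAsn-1 and 12.7, 17.7 and 15.8 CPM with mtLys. Here both groups lay above the control libraries, which had 10.6, 8.97 and 8.13 CPM (log2 fold change 0.76 ± 0.139 SE, edgeR adjusted p = 0.00903). Both genes stayed under the threshold whichever library was left out.

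The related chemokine genes CXCL2 and CXCL1 and PTGS2, the inducible cyclooxygenase of prostaglandin synthesis, were also among the 12 largest rises of protein-coding genes. CXCL2 had 4.14, 6.92 and 4.71 CPM with mtAsn-1 and 2.99, 3.6 and 2.94 CPM with mtLys (log2 fold change 0.69 ± 0.155 SE). CXCL1 had 15, 19.4 and 16.2 against 9.57, 11.8 and 10.4 CPM (0.66 ± 0.145), and PTGS2 4.98, 6.57 and 4.96 against 3.94, 2.75 and 3.69 CPM (0.65 ± 0.143). In each of the 3 the highest library was mtAsn-1 replicate 2 and the groups did not overlap. Without that library all 3 lost significance, with edgeR adjusted p-values of 0.0651 for CXCL2, 0.0691 for CXCL1 and 0.0502 for PTGS2. CXCL1 also lost it without mtAsn-1 replicate 3, mtLys replicate 1 or mtLys replicate 3, and PTGS2 without mtLys replicate 2. Reads of CXCL1, CXCL2 and CXCL3 may be shared in part, since the genes are near-identical over long stretches.

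DHRS3, a retinal reductase, had 11.3, 13.8 and 11.6 CPM with mtAsn-1 and 8.2, 7.03 and 8.27 CPM with mtLys, with no overlap (log2 fold change 0.64 ± 0.0922 SE, edgeR adjusted p = 8.89e-05). The control libraries had 14.2, 13.4 and 12.8 CPM, so that mtAsn-1 was near the control and mtLys below it. A similar placing was seen for NXPH4, a neurexophilin family member, at 9.04 ± 1.22 CPM with mtAsn-1, 6.17 ± 0.327 CPM with mtLys and 8.82 to 9.82 CPM in control libraries (log2 fold change 0.53). POU2F2, a lymphoid transcription factor of the POU family, had the opposite placing, with 7.64, 11.3 and 9.45 CPM with mtAsn-1, 6.58, 6.3 and 6.26 CPM with mtLys and 3.9 to 4.78 CPM in control libraries (log2 fold change 0.56). PCDHGB1, a clustered protocadherin, differed by 0.50 with little spread, at 15.5 ± 0.507 against 10.9 ± 0.827 CPM, but 47.3% of its exonic bases are shared with other protocadherin genes on the same strand. The other genes among the 12 were AKR1C1, an aldo-keto reductase with near-identical relatives (0.59), LHPP, a phosphatase (0.50), and ADGRB2, an adhesion G protein-coupled receptor (0.48). AKR1C1 and ADGRB2 lost their calls without mtAsn-1 replicate 1 or mtLys replicate 3, and LHPP without mtAsn-1 replicate 2, mtLys replicate 2 or mtLys replicate 3. Among other classes of gene, the largest rise was in the long non-coding RNA MIR3142HG, whose exons overlap MIR146A, the precursor of a microRNA known to dampen inflammatory signalling. It had 4.83, 7.55 and 5.25 CPM with mtAsn-1 and 3.4, 2.87 and 3.05 CPM with mtLys (log2 fold change 0.89 ± 0.141 SE, edgeR adjusted p = 0.000251).

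**Figure D2:**
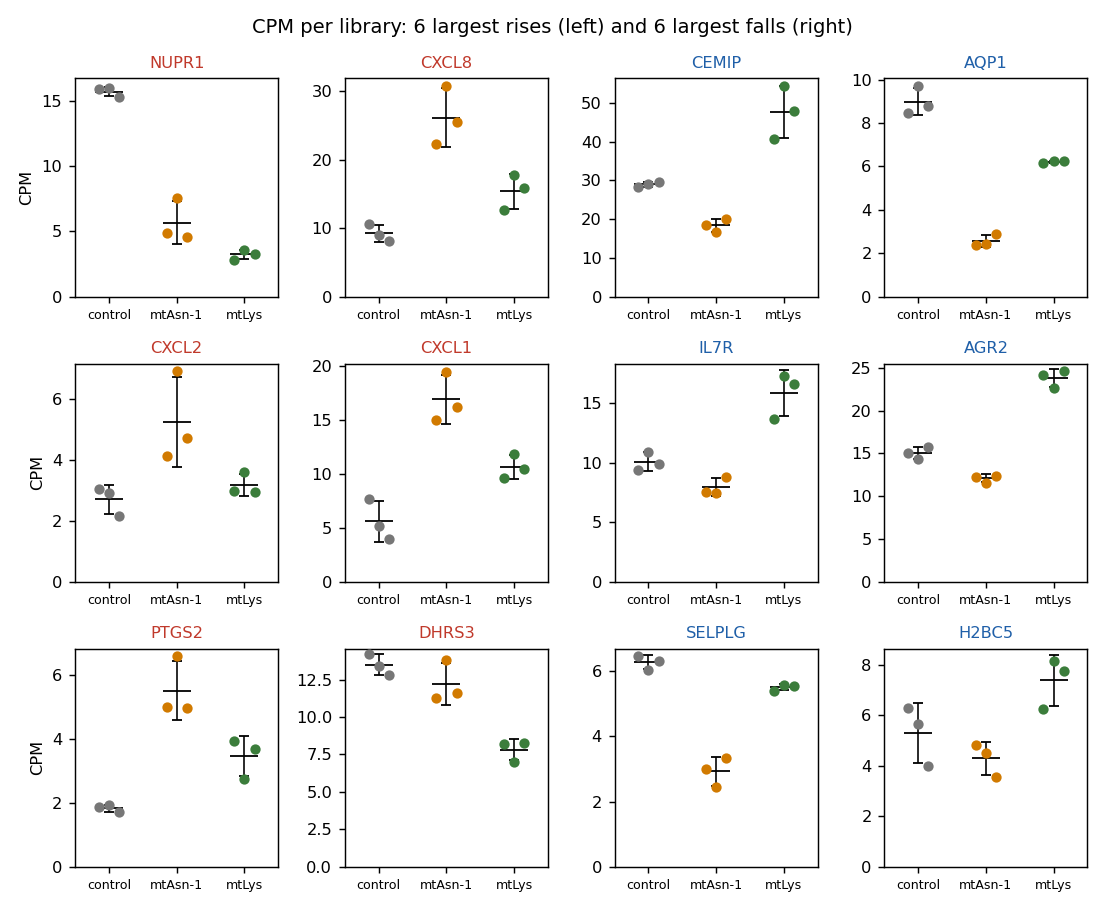
CPM in each of the 3 control, 3 mtAsn-1 and 3 mtLys libraries for the 6 protein-coding genes with the largest rises (red titles) and the 6 with the largest falls (blue titles). All were called and had a mean log2 CPM of at least 2. Points are libraries, horizontal bars are means and whiskers are SD (n = 3). mtAsn-1 and mtLys libraries are apart in every panel because only genes with no overlap were picked. The control lies above both for NUPR1, AQP1 and SELPLG, below both for CXCL8, CXCL1 and PTGS2, and between them for CEMIP, IL7R and AGR2.

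The largest falls were led by CEMIP, AQP1, IL7R and AGR2. CEMIP, which encodes a protein needed for the breakdown of hyaluronan (chromosome 15, 80779370 to 80951771, plus strand), had 18.5, 16.6 and 20.0 CPM with mtAsn-1 and 40.7, 54.3 and 48.0 CPM with mtLys. The control libraries, at 28.3 to 29.6 CPM, lay between the groups (log2 fold change −1.36 ± 0.0893 SE, edgeR adjusted p = 1.48e-08). The exons of CEMIP overlap those of MESD on the other strand, and MESD itself had 73.6 and 78.2 CPM in the 2 groups (edgeR adjusted p = 0.386). AQP1, a water channel (chromosome 7, 30911694 to 30925517, plus strand), had 2.36, 2.4 and 2.87 CPM with mtAsn-1, 6.17, 6.24 and 6.26 CPM with mtLys and 8.48, 9.68 and 8.77 CPM with the control LNA. Its groups were ordered without overlap, mtAsn-1 lowest and control highest (log2 fold change −1.27 ± 0.124 SE). AQP3, a channel for water and glycerol, had the same order at 10.9 ± 1.58, 19.1 ± 2.59 and 23.9 to 26.9 CPM (log2 fold change −0.79 ± 0.112 SE).

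AGR2, a protein disulphide isomerase of secretory epithelia, had 12.3, 11.5 and 12.4 CPM with mtAsn-1 and 24.2, 22.6 and 24.6 CPM with mtLys. Of the genes named here it had the smallest adjusted p (log2 fold change −0.97 ± 0.0708 SE, edgeR adjusted p = 1.08e-09), and the control libraries at 14.3 to 15.7 CPM lay between the groups but nearer mtAsn-1. IL7R, the interleukin-7 receptor chain, had 7.54, 7.49 and 8.84 against 13.7, 17.3 and 16.6 CPM (−0.98 ± 0.0969), again with the control, at 9.37 to 10.9 CPM, nearer mtAsn-1. ANGPTL2, a secreted angiopoietin-like protein, had 29.4, 36.5 and 31.7 against 58.2, 52.0 and 55.3 CPM (−0.77 ± 0.0663), and for it the control at 23.2 to 24.9 CPM lay below both. F3, tissue factor, the initiator of coagulation, had 123, 112 and 126 against 173, 221 and 200 CPM (−0.72 ± 0.0895). MATN2, a matrix protein, stood at 5.47 ± 0.187 CPM with mtAsn-1 and 9.04 ± 0.103 CPM with mtLys, where the control had 5.34 to 5.83 CPM. In these 5 genes the groups did not overlap and no left-out library ended the call. The same held for SELPLG, the selectin ligand PSGL-1 (−0.88), MYO1F, an unconventional myosin (−0.75), and the histone gene H2BC5 (−0.80), whereas SLAMF7, a receptor of the SLAM family (−0.75, edgeR adjusted p = 0.0235), lost its call without either of mtAsn-1 replicates 1 and 2 or mtLys replicates 2 and 3. In non-coding and unclassed genes the largest falls were in LOC105371453 (−1.19), which overlaps BCAN on the other strand, ITGB2-AS1 (−0.84), which overlaps ITGB2, and FLJ22447 (−0.60), which overlaps LINC01303. Strand use in the counting is not given in the sources used here, so reads of such partners may be mixed. ITGB2, the integrin beta-2 chain, fell too, from 31.3 ± 1.77 CPM with mtLys to 22 ± 0.59 CPM with mtAsn-1 (−0.50, edgeR adjusted p = 3.63e-06), and the control had 46.2 to 47.3 CPM.

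Several genes with few reads fell further, and 5 of them were singled out after their values had been seen. S100P, a calcium-binding protein of the S100 family (chromosome 4, 6693878 to 6697170, plus strand), had 45, 30 and 49 reads with mtAsn-1, 222, 237 and 152 reads with mtLys and 525, 551 and 312 reads with the control LNA. In CPM this was 2.22, 1.71 and 1.76 against 5.98, 6.94 and 5.66, with the control at 16.7 to 19.6 and no overlap anywhere (log2 fold change −1.71 ± 0.151 SE, edgeR adjusted p = 1.5e-08). TRIM29, a tripartite motif protein of squamous epithelium, had 19, 21 and 22 reads with mtAsn-1 and 88, 111 and 65 with mtLys (−1.499 ± 0.197). PI16, a secreted peptidase inhibitor family member, had 12, 5 and 5 reads against 64, 65 and 58 (−2.49 ± 0.292), and the control had 43, 47 and 39 reads. CDH1, E-cadherin, the adhesion molecule of epithelial cells, had 0, 0 and 1 read with mtAsn-1, 14, 13 and 7 reads with mtLys and 14, 10 and 9 with the control. NECTIN4, another epithelial adhesion molecule, had no read in any mtAsn-1 library and 6, 3 and 3 with mtLys, close to the limit of what these libraries resolve (edgeR adjusted p = 0.0354, over 0.05 without any 1 of the 6 compared libraries). CDH1, by contrast, stayed under the threshold in all 12 fits that left out a library (edgeR adjusted p = 0.00422 with all of them). Neither CDH1 nor NECTIN4 neared the minimum count of 10 in an mtAsn-1 library, so both passed the filter only through other groups. NECTIN4 had at most 0.214 CPM in the control and mtLys libraries. The stability of such a call adds little. E-cadherin is known to be nearly silent in MDA-MB-231, and these counts show a trace level only.

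List counts here and below are to be read beside the shares over all tested genes, 2.12% higher and 3.14% lower. Of 36 tested members of the ATF4 and integrated stress response list, 13 rose with mtAsn-1 (36.1%) and none fell. The sign was positive for 31 and negative for 5 (lowest −0.49), and the median log2 fold change was 0.18 where that of all tested genes was 0.00. The smallest adjusted p belonged to SLC7A11, the cystine importer, at 127, 134 and 127 CPM with mtAsn-1, 106, 95.9 and 97.0 CPM with mtLys and 106 to 117 CPM with the control (log2 fold change 0.37 ± 0.0463 SE, edgeR adjusted p = 8.16e-06). SHMT2, which makes glycine and one-carbon units in mitochondria, had 391, 401 and 387 against 323, 332 and 310 CPM (0.29 ± 0.0391), and both genes overlap another gene on the other strand. For each the mtAsn-1 libraries were all above the mtLys libraries, and the control mean lay between the groups. PSAT1, the aminotransferase of serine synthesis, had 123, 131 and 120 against 96.8, 95.2 and 96.1 CPM, and the control stood higher than both at 171 to 211 CPM (0.37 ± 0.0584). The control mean lay above both LNA groups for 10 of the 13 genes that rose and between them for the other 3. DDIT3, the stress transcription factor CHOP, was one of the 10, at 32.6 ± 2.96 CPM with mtAsn-1, 25.8 ± 0.677 CPM with mtLys and 37.7 to 39.6 CPM in control libraries (0.33 ± 0.0603, edgeR adjusted p = 0.0014). ATF4 itself had 455, 468 and 453 against 411, 410 and 417 CPM, a small difference with no overlap (0.15 ± 0.0359, edgeR adjusted p = 0.0105), although 47.2% of its exonic bases are shared with MIEF1 on the same strand. The count of rises was 7 without mtAsn-1 replicate 2, 6 without mtLys replicate 2 and 7 without mtLys replicate 3.

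ASNS, asparagine synthetase, is shown in detail because its product is the amino acid carried by the targeted tRNA. It had 34, 41 and 42 reads with mtAsn-1 (1.68, 2.34 and 1.51 CPM), 41, 36 and 30 reads with mtLys (1.11, 1.05 and 1.12 CPM) and 2.83 to 3.14 CPM with the control. The mtAsn-1 libraries lay between the other groups without overlap (log2 fold change 0.72 ± 0.198 SE, edgeR adjusted p = 0.031), but the call was lost when any of the 6 compared libraries other than mtAsn-1 replicate 3 was left out. How reads of shared exons were assigned is not given in the sources used here, and 67.6% of the exonic bases of ASNS are shared with the readthrough gene CZ1P-ASNS, which had 1.77 CPM with mtAsn-1 and 1.83 CPM with mtLys (edgeR adjusted p = 0.903). In the 250 bases before the start, TGATGNAA, a core of the known ATF4 and C/EBP composite element (searched on both strands), was present in 3.14% of 35116 RefSeq promoter windows. It was held by 8 of the 32 list members with a window, counted per gene with a match in any of its windows. Of the 13 genes that rose, 9 had a promoter window and 4 of these, AARS1, ASNS, CHAC1 and GARS1, held the motif. In ASNS it begins at −68 from the start. The stretch from −128 to −1 is printed (RefSeq, GRCh38.p14, minus strand, chr7:97872409-97872536), with the match in capitals.
ASNS: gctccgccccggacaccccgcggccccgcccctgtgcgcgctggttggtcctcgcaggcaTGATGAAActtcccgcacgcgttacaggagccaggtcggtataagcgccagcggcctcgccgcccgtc

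The enzymes that charge cytosolic tRNAs overlap with this list. Of 20 tested, 4 rose (AARS1, GARS1, YARS1 and SARS1, for alanine, glycine, tyrosine and serine), or 20% where 2.12% of all tested genes rose. None fell, and the median was 0.03. AARS1 had 209, 230 and 208 CPM with mtAsn-1 and 198, 187 and 185 CPM with mtLys (log2 fold change 0.18 ± 0.0427 SE, edgeR adjusted p = 0.0102), under the control at 248 to 254 CPM. All 4 calls were lost without mtAsn-1 replicate 2, which was the highest mtAsn-1 library for each, and also without mtLys replicate 2 or replicate 3. Among 32 enzymes of serine, glycine and folate metabolism, 5 rose (15.6%) and 2 fell (6.25%, where 3.14% of all tested genes fell). SHMT2, PSAT1, PHGDH and PSPH among these rises were already counted in the ATF4 list. The median was 0.06. The rises numbered 3 without mtAsn-1 replicate 1 or mtLys replicate 1, and 2 without mtAsn-1 replicate 2, mtLys replicate 2 or mtLys replicate 3. FOLR1, a folate receptor, fell from 3.41 ± 0.233 to 2.25 ± 0.416 CPM (−0.57 ± 0.15, edgeR adjusted p = 0.0229), a call lost without mtAsn-1 replicates 1 or 2 or mtLys replicates 2 or 3. The oxidative stress list of NRF2 targets and pentose phosphate enzymes had 5 rises (16.7%) and no fall in 30 genes. SLC7A11, already counted in the ATF4 list, was 1 of the 5. Among the rises was the quinone reductase NQO1, at 251 ± 15.1 CPM with mtAsn-1 and 213 ± 9.77 CPM with mtLys. Both were far under 429 to 454 CPM in control libraries (0.24 ± 0.0466, edgeR adjusted p = 0.00204). That list had 3 rises without mtAsn-1 replicate 2, mtLys replicate 1 or mtLys replicate 3.

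NF-kB is a transcription factor of inflammatory signalling. Of 31 tested NF-kB targets and cytokines, 9 rose with mtAsn-1 (29%, where 2.12% of all tested genes rose) and none fell. A positive sign was seen for 20 and a negative sign for 11 (lowest −0.33), and the median was 0.17. For 7 of the 9 the control lay below both groups. Besides the chemokines and PTGS2 described above, IL1A and IL1B, the genes for interleukin-1 alpha and beta, rose at very low levels. IL1A had 1.13, 1.89 and 1.98 CPM with mtAsn-1 against 0.836, 0.937 and 0.819 CPM with mtLys (log2 fold change 0.96 ± 0.218 SE, edgeR adjusted p = 0.00861). IL1B had 2.66, 4.46 and 2.66 against 2.4, 1.93 and 1.79 CPM, with mtAsn-1 replicate 2 far above the other libraries (0.62 ± 0.178, edgeR adjusted p = 0.0369, and 0.308 without that library). TNFAIP3, the ubiquitin-editing enzyme A20 that restrains NF-kB, had 17.6, 21.1 and 17.4 against 13.6, 16.3 and 13.9 CPM (0.35 ± 0.0845), again with replicate 2 on top. IL6, a cytokine of the same list, did not pass, at 11.8 and 11.3 CPM (log2 fold change 0.05 ± 0.109 SE). Without mtAsn-1 replicate 2 the list had 2 calls, CXCL8 and IL1A, and it had 5 without mtLys replicate 1 or mtLys replicate 3. That library also had the lowest mitochondrial share, and the part of this in the result was not tested.

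A core NF-kB motif (GGG, any 2 bases, then TTTCC, on both strands) was found in the 250 bases before the start in 1.73% of all promoter windows. It was held by 12 of the 27 list members with a window, again counted per gene. All 9 genes that rose had a window, and CXCL1, CXCL2, CXCL3 and TNFAIP3 held a match. The promoters of CXCL1 (plus strand, chr4:73869254-73869383) and CXCL2 (minus strand, chr4:74099204-74099333) are printed because they show how alike the neighbours are that rose together. Matches stand in capitals and begin at −79 from the start in CXCL1 and at −78 in CXCL2 (RefSeq, GRCh38.p14).
CXCL1: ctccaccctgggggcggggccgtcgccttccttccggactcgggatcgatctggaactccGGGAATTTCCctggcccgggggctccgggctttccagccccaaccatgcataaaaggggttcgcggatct
CXCL2: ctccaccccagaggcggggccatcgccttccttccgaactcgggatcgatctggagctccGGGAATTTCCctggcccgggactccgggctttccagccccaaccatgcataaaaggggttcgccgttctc

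Interferon-stimulated genes encode antiviral effectors and sensors. Of 39 tested members, 15 fell with mtAsn-1 (38.5%, where 3.14% of all tested genes fell) and none rose. A negative sign was seen for 34 and a positive sign for 5 (highest 0.44), and the median was −0.20. ISG15, a ubiquitin-like modifier, had 78.1, 84.8 and 85.6 CPM with mtAsn-1, 104, 105 and 111 CPM with mtLys and 159 to 196 CPM with the control (log2 fold change −0.36 ± 0.0579 SE, edgeR adjusted p = 0.000473). ISG20, an exonuclease, had 14.3, 15.4 and 14.1 against 19.9, 19.5 and 21.3 CPM, with the control at 14.2 to 17.2 CPM (−0.47 ± 0.0746, edgeR adjusted p = 0.000246). Groups did not overlap for either gene, but mtLys stood below the control for ISG15 and above it for ISG20. DDX60, a helicase that aids RNA sensing, had 32.8, 39.0 and 36.0 against 51.2, 50.2 and 56.4 CPM over a control of 25.9 to 31.9 CPM (−0.55 ± 0.0858). DDX58, the RNA sensor RIG-I, had 50.3, 50.9 and 55.5 against 59.4, 67.7 and 66.4 CPM over a control of 40.3 to 42.2 CPM (−0.30 ± 0.055). IFIT2, an antiviral protein with tetratricopeptide repeats, lay under the control with both LNAs, at 57.7 CPM with mtAsn-1, 82.3 CPM with mtLys and 103 CPM with the control (means of 3 libraries). The control was above both groups for 7 of the 15, below both for 3 and between them for 5. MX1 and IFI6, further members, did not pass, with log2 fold changes of 0.02 ± 0.124 and −0.01 ± 0.0781 (SE). The count of falls was 8 without mtAsn-1 replicate 2, and also 8 without mtAsn-1 replicate 1 or mtLys replicate 3.

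The interferon motif (GAAA, any 2 bases, then GAAA, on both strands), found upstream of the start in 3.02% of all promoter windows, was held by 22 of the 32 list members with a window and by 7 of the 11 that fell and had one (DDX60, EPSTI1, HERC5, IFIT3, ISG15, ISG20 and SAMD9). ISG15 is printed from −167 to −38 from the start (RefSeq, GRCh38.p14, plus strand, chr1:1013330-1013459), since it carries overlapping copies of the motif, which stand in capitals. Over all 35116 windows, matches of any pair of the 3 motifs shared a base in 10. For all 3 motifs the share over windows and the counts per gene are unlike units, since a gene can have several windows. A match describes letters only and shows no binding.
ISG15: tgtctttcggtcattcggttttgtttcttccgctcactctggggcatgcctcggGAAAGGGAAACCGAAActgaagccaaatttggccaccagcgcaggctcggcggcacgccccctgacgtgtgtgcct

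**Figure D3:**
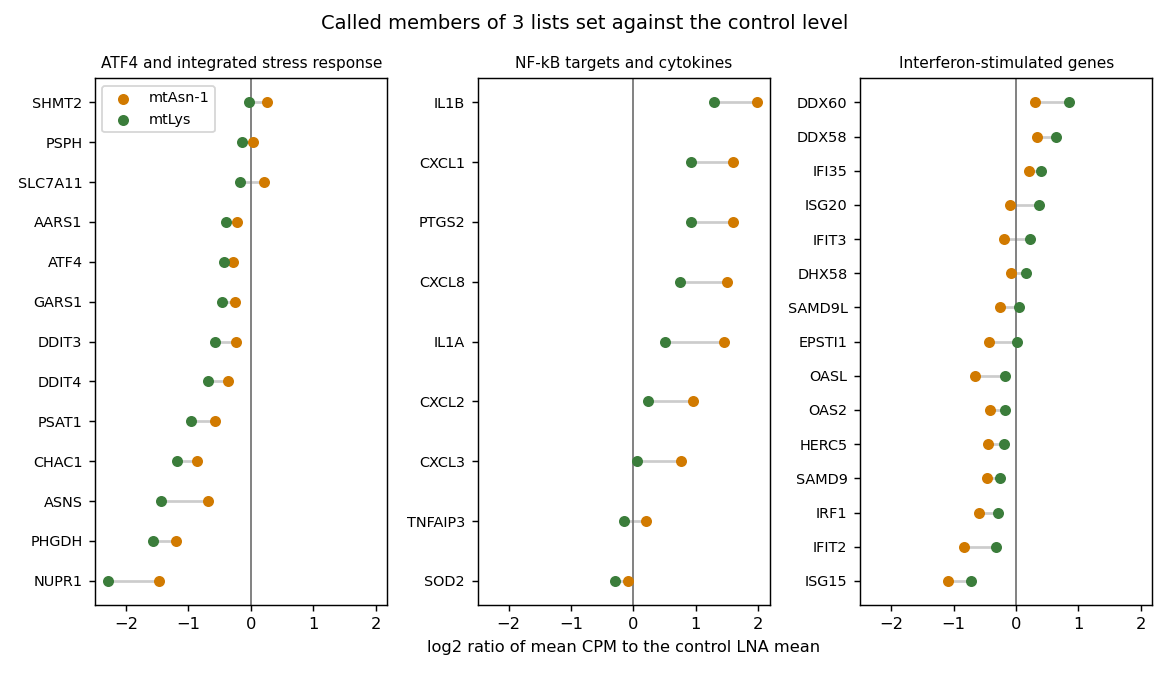
Called members of the ATF4, NF-kB and interferon lists, with the log2 ratio of the mean CPM with mtAsn-1 (orange) and with mtLys (green) to the control mean on the horizontal axis. The vertical line at 0 is the control. The control lies above both LNAs for 10 of 13 ATF4 genes and below both for 7 of 9 NF-kB genes, while the 15 interferon genes fall on both sides of it.

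In the list of keratins and epithelial genes, 10 of 23 tested members fell (43.5%, where 3.14% of all tested genes fell) and none rose. The median was −0.17. A positive sign was seen for 7 members (highest 0.56), of which 1 had an unadjusted p under 0.05. AGR2, S100P and CDH1, described above, were among the 10 that fell. KRT81, a hair-type keratin with near-identical relatives, had 126, 138 and 133 CPM with mtAsn-1, 165, 183 and 186 CPM with mtLys and 305 to 327 CPM with the control, in that order without overlap (log2 fold change −0.43 ± 0.0501 SE, edgeR adjusted p = 5.21e-06). KRT7, a simple-epithelial keratin, had 604, 590 and 597 against 684, 744 and 721 CPM (−0.26 ± 0.0384), and here mtLys was level with the control at 709 to 754 CPM. The count was 7 without mtAsn-1 replicate 2. In the S100 family of calcium-binding proteins, 3 of 12 fell (25%), namely S100P, S100A3 and S100A5. The falls numbered 4 without mtAsn-1 replicate 2 and 2 without mtAsn-1 replicate 1 or mtLys replicate 1. S100A3 stood at 18 ± 1.83 CPM against 24.2 ± 1.08 CPM (−0.41 ± 0.076, edgeR adjusted p = 0.00138).

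Among 51 tested collagens, laminins and other matrix genes, 4 rose (7.84%) and 12 fell (23.5%), with a median of −0.07. Over all tested genes the shares were 2.12% and 3.14%. CEMIP led the falls, and COL5A1, a fibrillar collagen chain, had 531, 555 and 546 CPM with mtAsn-1 and 682, 638 and 647 CPM with mtLys (log2 fold change −0.27 ± 0.0422 SE, edgeR adjusted p = 0.000236). THBS1, thrombospondin-1, had 764, 651 and 763 against 869, 1044 and 952 CPM (−0.39 ± 0.0703). LAMA3, a laminin chain of epithelial basement membrane, went up, with 155, 183 and 159 against 137, 124 and 121 CPM over a control of 90.9 to 99.7 CPM (0.38 ± 0.0591). TNC, tenascin-C, rose from 184 ± 12.3 to 224 ± 14.3 CPM, and both were well over the control at 68.0 to 73.3 CPM (0.28 ± 0.051). For 11 of these 16 genes the control lay below both groups. The falls numbered 10 without mtAsn-1 replicate 2, 6 without mtAsn-1 replicate 1, 7 without mtAsn-1 replicate 3 and 5 without mtLys replicate 3, and the rises 2 without mtAsn-1 replicate 2, mtLys replicate 2 or mtLys replicate 3, with the replicate number as a block or with the stricter filter.

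Genes of TGF-beta and activin signalling had 6 falls and no rise in 27 tested (22.2%, where 3.14% of all tested genes fell). The median was −0.11. INHBB, the activin beta-B subunit, had 23.9, 17.9 and 19.1 CPM with mtAsn-1, 31.0, 32.5 and 29.8 CPM with mtLys and 33.1 to 40.2 CPM with the control (log2 fold change −0.62 ± 0.112 SE, edgeR adjusted p = 0.00524). TGFB2, a ligand, had 50.5, 50.0 and 48.5 against 57.7, 63.8 and 63.0 CPM (−0.31 ± 0.062, edgeR adjusted p = 0.00324), and 22.8% of its exonic bases are shared with TGFB2-OT1. Neither overlapped between the groups. The inhibitor SMAD6, the co-receptor TGFBR3 and the ligands TGFB3 and BMP4 made up the 6, with log2 fold changes from −0.29 to −0.45. The falls numbered 4 without mtAsn-1 replicate 2 and 3 without either mtLys replicate 2 or mtLys replicate 3. Of 20 YAP-TEAD targets, genes switched on by the Hippo pathway effector YAP, 3 fell (F3, TGFB2 and ANKRD1), or 15%, and none rose. The median was −0.07, and 2 fell without mtAsn-1 replicate 2.

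Differences in ribosomal protein genes were small. Of 73 cytosolic ribosomal protein genes tested, 33 were higher with mtAsn-1 (45.2%, where 2.12% of all tested genes were) and none lower. A positive sign was seen for 72, and the median was 0.13. RPL13A had 1850, 1948 and 1812 CPM with mtAsn-1 and 1632, 1596 and 1659 CPM with mtLys (log2 fold change 0.20 ± 0.0361 SE, edgeR adjusted p = 0.00118). Its highest library was mtAsn-1 replicate 2, and the groups did not overlap. The number of calls was 15 without mtAsn-1 replicate 2, 20 without mtLys replicate 1 and 9 without mtLys replicate 2. Processed pseudogenes of ribosomal proteins can take up some of these reads. Host genes of small nucleolar RNAs, which like ribosomal proteins tend to be transcripts with a 5′ oligopyrimidine tract, had 5 rises (20%) and no fall in 25. SNHG5 led these rises at 151 ± 7.67 CPM against 123 ± 5.99 CPM (0.29 ± 0.0478, edgeR adjusted p = 0.000317). The 5 became 2 without mtLys replicate 1 and 3 without any 1 of the mtAsn-1 replicates or mtLys replicate 2.

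Genes of mitosis and the G2 phase had 11 rises and no fall in 48 tested (22.9%, where 2.12% of all tested genes rose). The median was 0.12. CENPF, a kinetochore protein that peaks in G2 and mitosis, had 300, 304 and 301 CPM with mtAsn-1, 259, 233 and 240 CPM with mtLys and 251 to 270 CPM with the control (log2 fold change 0.30 ± 0.0471 SE, edgeR adjusted p = 0.000234). CCNB1, cyclin B1, had 318, 300 and 316 against 274, 264 and 270 CPM (0.21 ± 0.0432, edgeR adjusted p = 0.00339). The other 9 included MKI67, CDC20 and ASPM, with differences from 0.13 to 0.21, and for 8 of the 11 the control lay below both groups. The count was 11 without mtAsn-1 replicate 2, though CCNB2, NUF2, PTTG1 and ASPM were not among those. It was 6 without mtAsn-1 replicate 1, 5 without mtAsn-1 replicate 3, 2 without mtLys replicate 2 and 4 without mtLys replicate 3. By contrast, edgeR called none of 47 genes of DNA replication and S phase, of which 3 had an unadjusted p under 0.05, all lower, and DESeq2 called none either. Whether the mitotic and replication lists differ from each other was not tested.

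**Figure D4:**
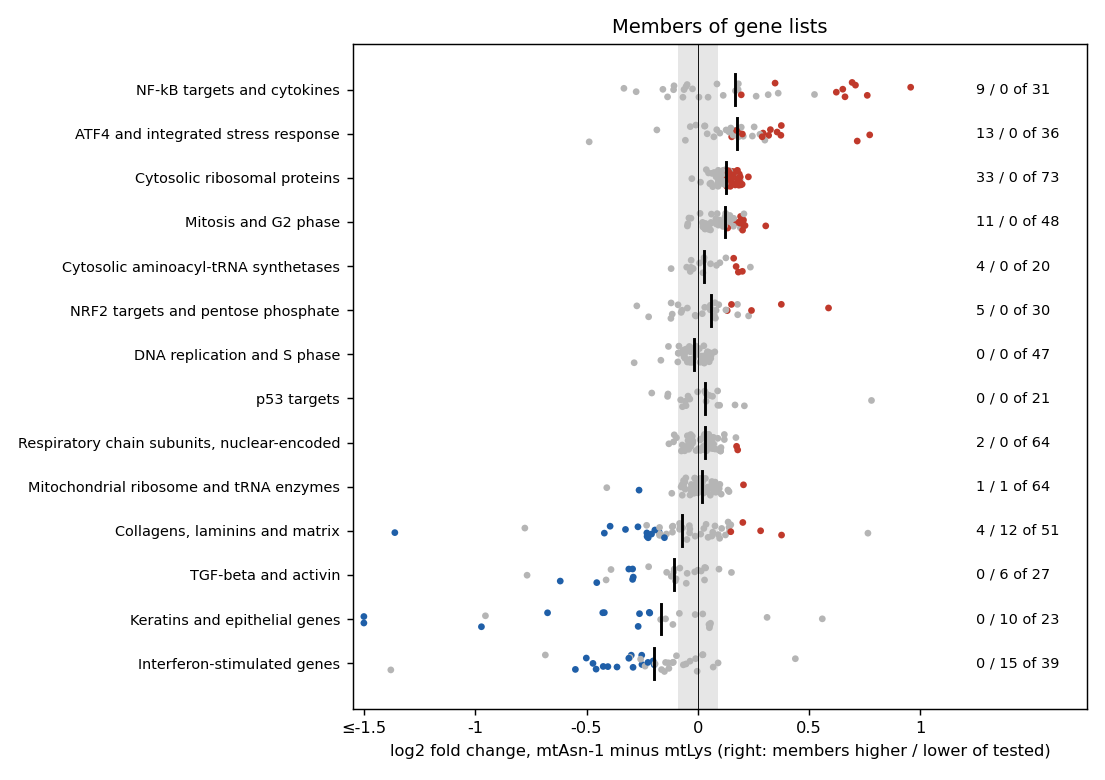
Log2 fold change (mtAsn-1 minus mtLys) of each tested member of 14 gene lists on the horizontal axis, with a black bar at the list's median and the interquartile range of all tested genes shaded. Red and blue points passed the test and grey points did not, and the count at the right gives members higher and lower of those tested. Values under −1.5 (S100P and CDH1) are drawn at the edge.

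Core metabolism and the mitochondrial machinery encoded in the nucleus differed little between the LNAs. Of 64 respiratory chain subunits tested, 2 rose, a share of 3.12% where 2.12% of all tested genes rose (NDUFS7 of complex I, from 72.5 ± 2.68 to 82.2 ± 2.47 CPM, and ATP5F1D of the ATP synthase, from 78.9 ± 3.66 to 89.0 ± 3.33 CPM) and none fell, with a median of 0.03. Both calls were lost without mtAsn-1 replicate 1 or 2 or mtLys replicate 2 or 3. Of 64 genes of the mitochondrial ribosome and of mitochondrial tRNA enzymes, YARS2, the mitochondrial tyrosyl-tRNA synthetase, rose (0.21 ± 0.0559) and MRPS6, a ribosomal protein, fell (−0.26 ± 0.0625). These calls were 1.56% of the list in each direction, under the shares over all tested genes. YARS2 lost its call without any 1 of the mtAsn-1 replicates, mtLys replicate 1 or mtLys replicate 3, and MRPS6 without mtLys replicate 2. No call was made by edgeR among 21 mitochondrial chaperones and proteases, where 4 had an unadjusted p under 0.05 and DESeq2 called 2 as higher. Glycolysis and glucose uptake had 1 fall in 24 (4.17%, where 3.14% of all tested genes fell), PFKFB2 (−0.30 ± 0.0659). That call was lost without mtLys replicate 2 or with libraries thinned to the smallest total. In cholesterol synthesis and uptake, 1 of 27 tested genes rose (3.7%) and 3 fell (11.1%). INSIG1, a brake on the pathway, rose by 0.16 ± 0.0382, and LSS, lanosterol synthase, fell by 0.22 on the log2 scale. The falls of the list numbered 1 without mtAsn-1 replicate 2 and 0 without mtAsn-1 replicate 3, mtLys replicate 2 or mtLys replicate 3, where DESeq2 with all libraries called 3 and 7 had an unadjusted p under 0.05 by edgeR. LSS lost its call in these 4 fits and without mtLys replicate 1.

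Other lists gave few calls or none by edgeR. None of 21 p53 targets passed, and 2 had an unadjusted p under 0.05. CDKN1A, the cell cycle inhibitor p21, had 130 CPM with mtAsn-1 and 135 CPM with mtLys (edgeR adjusted p = 0.588). The 29 proteasome subunits, the 15 heat shock genes and the 21 Jumonji histone demethylases tested also had no call, with 2, 2 and 4 genes at an unadjusted p under 0.05, and DESeq2 made no call in these 4 lists. Histone genes had 3 rises (15%) and 4 falls (20%) in 20. The rises numbered 1 with the replicate number as a block and without mtAsn-1 replicate 1, mtAsn-1 replicate 3, mtAsn-2 replicate 2 or any 1 of the mtLys replicates. There were 2 rises and 3 falls without mtAsn-1 replicate 2, and 2 falls with the stricter filter. H2BC12 fell from 39.8 ± 4.04 to 26.3 ± 1.42 CPM (−0.59 ± 0.065), together with H2AC6, H2BC5 and H2BC4. The replication-dependent histone genes among these have near-identical copies. Among genes of early growth factor response, PHLDA1 rose from 1087 ± 46.0 to 1295 ± 49.7 CPM (0.25 ± 0.0399, edgeR adjusted p = 0.000246). In the same list of 37 genes, with 5.41% higher and 2.7% lower, ETV5 rose too. That call was lost without mtAsn-1 replicate 2, mtLys replicate 2 or mtLys replicate 3. DUSP1 was called lower although its groups overlapped, and lost the call without mtAsn-1 replicate 1, mtAsn-1 replicate 3, mtLys replicate 2 or mtLys replicate 3.

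The cell type was checked with markers. All 10 genes taken to mark MDA-MB-231 were tested, and they summed to 7598 to 8100 CPM with mtAsn-1 and 7689 to 7844 CPM with mtLys. SNAI2, CD44, CAV1 and EGFR among them were lower with mtAsn-1, by 0.13 to 0.36 on the log2 scale, and none was higher. This was 40% of the list, where 3.14% of all tested genes were lower. These 4 calls became 1 without mtAsn-1 replicate 1 and 3 without mtAsn-1 replicate 2. Of 7 tested luminal and hormone receptor genes 1 fell (14.3%), CDH1, and PGR, the progesterone receptor gene, was at 0 in all 9 libraries. For cell types foreign to the culture, 5 of 14 leukocyte markers, 4 of 8 endothelial markers, 2 of 10 fibroblast markers and none of 7 erythroid markers were tested, and edgeR called none of them, with 3 of the 11 tested at an unadjusted p under 0.05 and none called by DESeq2. The whole lists summed to 291 to 319 CPM with mtAsn-1 and 304 to 329 CPM with mtLys for leukocytes, 19.3 to 22.5 and 20.1 to 23 CPM for endothelium, 41.5 to 45.3 and 45.1 to 48.0 CPM for fibroblasts and at most 0.41 CPM for erythroid genes. The leukocyte markers CD3E and MS4A1, the fibroblast markers DCN and POSTN and the erythroid gene HBB had no read in any of the 9 libraries. The same held for the ribosomal protein gene RPS18, the proteasome gene PSMC4 and the heat shock genes HSPA1A and HSPA1B. A count of 0 here, also that of PGR, therefore does not show that a gene is silent.

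The share of genes called varied with class, length and level. Protein-coding genes made up 320 of the 341 higher and 461 of the 504 lower genes, out of 12733 tested. Of 1349 long non-coding RNA genes, 13 were higher and 27 lower. Over quartiles of exonic length from short to long, 2.54%, 2.49%, 1.57% and 1.89% were higher and 2.02%, 3.39%, 3.09% and 4.06% lower. Over quartiles of level from low to high, 0.374%, 1.37%, 2.39% and 4.36% were higher and 1.84%, 3.79%, 2.99% and 3.94% lower. The control lay above both groups for 24.3% of higher and 33.7% of lower genes, below both for 45.5% and 30%, and between them for 30.2% and 36.3%, where the shares over all tested genes were 42.9%, 42.3% and 14.9%. Called genes were selected for a gap between the 2 groups, so a control mean between them was likelier from the start. Exons of 70 of the higher genes (20.5%) and 122 of the lower genes (24.2%) overlap a gene on the other strand, where the share over all tested genes was 29.1%.

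**Figure D5:**
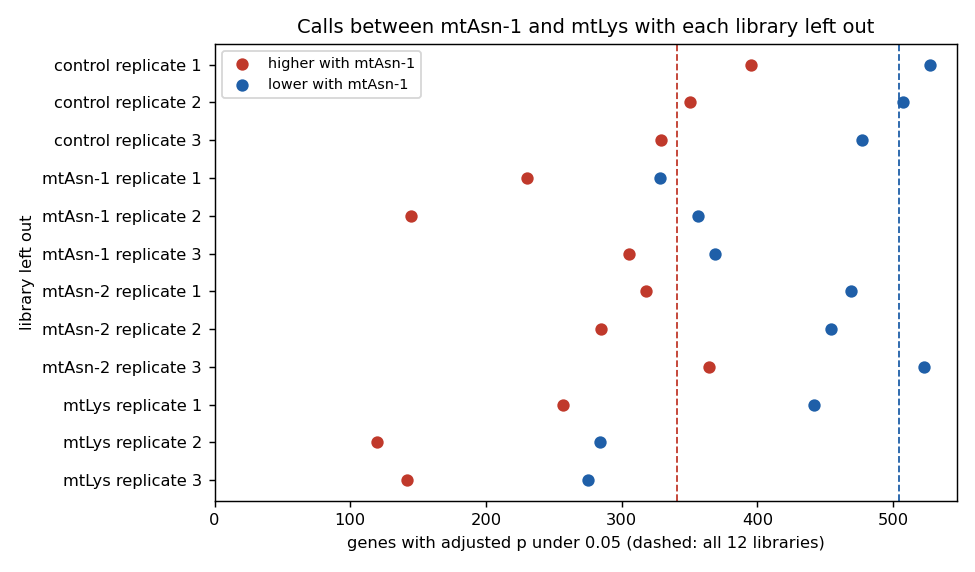
Number of genes higher (red) and lower (blue) with mtAsn-1 than with mtLys at an edgeR adjusted p under 0.05 when each of the 12 libraries is left out, named on the vertical axis. Dashed lines mark 341 and 504 genes with all libraries. The higher genes drop furthest without mtLys replicate 2, mtLys replicate 3 or mtAsn-1 replicate 2.

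Leaving out libraries changed the number of calls. Direction was followed only in genes called from these same libraries, so a turn was unlikely from the start and its absence adds little. Higher genes numbered 120 without mtLys replicate 2, 142 without mtLys replicate 3 and 145 without mtAsn-1 replicate 2. Lower genes numbered 275 without mtLys replicate 3, 284 without mtLys replicate 2 and 328 without mtAsn-1 replicate 1. Of the 87 named genes that were called, 51, among them CEMIP, AQP1, AGR2, NUPR1, CXCL8, SLC7A11, ISG15 and S100P, were called in all 12 fits.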

How the data were processed

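Libraries came from a TruSeq RNA kit and total RNA of the MDA-MB-231 cultures, per the labels. The authors deposited raw read counts per gene, 1 column per library, with no normalisation. The build hg38 and the tools STAR 2.6.0a, FastQC, DESeq2 and featureCounts are named, without roles, in the submitters' processing notes; use of strand and of reads that map to several places is not given in the sources used here. Of 52897 lines, 52859 were intact genes; 12 genes with broken lines were left out (at most 0.141% of a library). Total counts of the 12 libraries were 17978825 to 37708993.

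The test was edgeR 4.0.16 under R 4.3.3 (scaling by TMM, filterByExpr with minimum count 10 and minimum total 15, robust quasi-likelihood F test, all 12 libraries in 1 fit, Benjamini-Hochberg adjusted p under 0.05 over 16051 genes). The common biological coefficient of variation was 0.0421. CPM used TMM-scaled library sizes, and mean log2 CPM a prior count of 2. Each SE was obtained by dividing the size of the log2 fold change by the root of the F statistic. SD is over 3 libraries. The test was also run on counts simulated with the spread of this same fit, which cannot show how well it holds for the real libraries. Within the control, mtAsn-1 and mtLys groups, no library was a copy of another (chi-square per gene at least 2.43).

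Named genes were the targets and their synthetases, the 12 largest rises and 12 largest falls among called protein-coding genes whose groups did not overlap and whose mean log2 CPM was 2 or more, the 3 and 3 largest of other classes, and up to 2 rises and 2 falls per list with the smallest adjusted p. Further members named in the list descriptions, S100P, TRIM29, CDH1, NECTIN4 and PI16, and the genes whose promoters are printed were chosen after their values were seen. Some genes the rule selects are not reported here. The comparison, the 43 lists and the tests were chosen with earlier results of these data known. Classes came from RefSeq names (43438 genes matched), tRNA sequences from GENCODE v29 and promoters from RefSeq on GRCh38.p14. The alternatives tried were DESeq2 1.42.0, scaling by RLE, scaling with mitochondrial genes set aside, no filter, a stricter filter (mean log2 CPM of 2 or more, and 1 CPM or more throughout a group), the replicate number as a block, the 6 compared libraries alone, thinning to the smallest total, and each library left out in turn. Python 3.11.15, pandas 2.3.3, numpy 2.4.6, scipy 1.17.1 and matplotlib 3.10.9 were used.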

Additional observations from a re-analysis of the deposited data

How the results depend on the processing

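No called gene turned direction under any of the 20 alternatives that fitted it, and 314 higher and 393 lower genes were fitted under all 20. The genes had been selected by the main fit of the same counts, which made a turn unlikely in advance. Outside left-out libraries, genes higher with mtAsn-1 numbered 256 to 394 and genes lower 406 to 636. The size counts moved more: at least 1.5-fold differences numbered 102 by DESeq2 and 40 with the stricter filter, in place of 169, and at least 2-fold differences 33 and 5, in place of 62. The stricter filter removes the low genes that hold most of these. With 1 library left out at a time, higher genes ranged from 120 to 395, lower genes from 275 to 527, at least 1.5-fold differences from 96 to 172 and at least 2-fold differences from 40 to 75; the MT-TK rate ratio ranged from 0.89 to 1.15 and the MT-TN rate ratio from 0.866 to 1.82. With the replicate number as a block, 256 genes were higher and 420 lower, with 148 at least 1.5-fold and 58 at least 2-fold apart. No pairing by number was visible: deviations of same-numbered mtAsn-1 and mtLys libraries correlated at −0.17, −0.31 and 0.17 over genes, and not every library correlated best with its own number. With 3 libraries per group, whether same-numbered libraries were handled together cannot be told from these values. For the 90 named genes, 1649 of 1788 alternative values kept direction and side of the threshold and 139 lost significance, 20 of them outside left-out libraries. Of 1720 list counts under alternatives, 166 moved by over 1.5 times. The number of MT-TN reads limits any statement on that tRNA.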
